A study of Mus musculus with 9 samples.

Results

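The genes described here are 10 that encode proteins of the cardiac Z-disc, the intercalated disc and the sarcomeric LIM family, several of which are known to respond to mechanical load: Ankrd1, Ankrd23, Xirp1, Xirp2, Csrp3, Fhl1, Fhl2, Tcap, Nrap and Synpo2l. They were taken by gene symbol, each matched 1 row of the count tables, and together they are 10 of 53465 gene identifiers. RNA was sequenced from the infarct border zone of NOD-SCID mouse hearts (an immunodeficient strain without functional T and B lymphocytes) in 3 groups of 3 libraries. The first group had sham surgery, the second had a coronary artery ligated, and the third had the ligation and an implant of cells that the labels call FOXO3-GE-MPCs (below, the cells group). The label names the border zone for the sham hearts too, although the labels give these no ligation. The source field of 2 of the libraries of the cells group names another FOXO member, while title and treatment name FOXO3 and were followed. Age, sex, time after surgery and a ligated group with a vehicle or with unedited cells are not given in the sources used here, so in the third group the implant and the act of implanting cannot be told apart.

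The Z-disc anchors the thin filaments and titin of neighbouring sarcomeres, and the intercalated disc joins the end of one cardiomyocyte to the next. Both carry tension, and both hold adaptor proteins that bind structural proteins and, in some cases, also enter the nucleus. LIM domains are zinc-binding folds that act as docking sites, ankyrin repeats bind partners such as titin, and Xin repeats bind actin filaments. In cardiac muscle the gene Ankrd1 is widely used as a transcript that rises when the ventricle is overloaded.

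The tables hold read counts per gene, and the gene counts of a library summed to between 4549268 (ligation replicate 1) and 7515052 (ligation replicate 3). Levels are given as CPM (counts scaled to a common library size) with TMM factors, so 3 counts correspond to 0.375 to 0.639 CPM depending on the library. Reads from mitochondrially encoded genes took 19.1% to 19.9% of the counts in sham, 12.5% to 13.9% after ligation and 14.3% in the cells group. The file headers give sham replicates 1 and 2 one common name stem, and likewise ligation replicates 2 and 3. The labels do not say that the libraries came from separate animals, so every p-value below measures the spread between these libraries, which may be technical. In bulk tissue, fewer cardiomyocytes and less RNA of a gene per cardiomyocyte cannot be told apart.

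Promoter sequence was read from RefSeq windows (GRCm38.p6) for 8 of the 10 genes, with 13 windows in all. Each window was searched on both strands, over the 250 bases before the start site, for 4 motifs. These were the MCAT element that TEAD factors bind (CATTCC), the CArG box bound by SRF, the MEF2 box, and AGATAA as a GATA site. The CArG box was in 1.47% of the 32851 windows of all genes, the MEF2 box in 2.92%, AGATAA in 9.99% and MCAT in 12.6%. Of the 13 windows of the members, 3, 4, 3 and 2 held a match, in the same order. Matches of MCAT were in the windows of Ankrd1 and Ankrd23, of the MEF2 box in those of Xirp2, Synpo2l and Fhl2, of the CArG box in those of Fhl1 and Fhl2, and of AGATAA in those of Ankrd1, Ankrd23 and Fhl2. A match is a stretch of letters and not a measured binding site. The sequences below belong to the 3 genes with the widest range between groups and to the LIM pair Fhl1 and Fhl2, which moved in opposite directions. They are written 5′ to 3′ on the gene's own strand, with the match in capitals, and no match printed overlaps one of another motif.

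Ankrd1, MCAT on the opposite strand, chr19:36120040-36120063 (minus strand): actgccaaaGGAATGaccctctca
Ankrd1, MCAT on the opposite strand, chr19:36119953-36119976 (minus strand): actaagtctGGAATGaaaattcac
Xirp2, MEF2 box, chr2:67445752-67446001 (plus strand): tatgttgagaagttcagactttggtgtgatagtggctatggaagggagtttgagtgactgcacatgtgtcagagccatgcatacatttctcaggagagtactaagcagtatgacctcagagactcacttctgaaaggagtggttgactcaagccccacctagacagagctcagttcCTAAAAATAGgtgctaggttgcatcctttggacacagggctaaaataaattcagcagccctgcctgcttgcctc
Synpo2l, MEF2 box, chr14:20668355-20668604 (minus strand): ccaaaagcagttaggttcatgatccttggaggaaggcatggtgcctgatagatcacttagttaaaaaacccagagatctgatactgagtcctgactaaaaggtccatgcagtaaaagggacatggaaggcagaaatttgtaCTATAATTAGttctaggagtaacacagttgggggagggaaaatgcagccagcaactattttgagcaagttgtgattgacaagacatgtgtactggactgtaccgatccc
Fhl1, CArG box, chrX:56779524-56779682 (plus strand): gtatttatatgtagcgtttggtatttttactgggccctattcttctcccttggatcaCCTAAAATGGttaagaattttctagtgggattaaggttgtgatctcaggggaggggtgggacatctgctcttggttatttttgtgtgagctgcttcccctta
Fhl2, CArG box, chr1:43163962-43164211 (minus strand): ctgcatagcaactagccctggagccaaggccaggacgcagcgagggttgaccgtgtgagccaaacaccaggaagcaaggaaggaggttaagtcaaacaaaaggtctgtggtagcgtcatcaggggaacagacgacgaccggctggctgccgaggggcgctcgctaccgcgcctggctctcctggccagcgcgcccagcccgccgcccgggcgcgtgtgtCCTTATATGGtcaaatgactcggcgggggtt

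In these stretches the MEF2 box lay 74 to 65 bases before the start of Xirp2 and 109 to 100 bases before that of Synpo2l. The CArG box lay 102 to 93 bases before a RefSeq start of Fhl1 (56779683) and 31 to 22 bases before one of Fhl2 (43163961), both of them starts inside the gene's annotated span. Another CArG box lay 96 to 87 bases before the upstream start of Fhl2 (43196761), in exonic sequence. The MCAT letters of Ankrd1 lay 210 to 205 and 123 to 118 bases before its start, in sequence that another transcript model of the gene counts as exon. Fhl1 and Fhl2 both carry a CArG match. Whether these starts are used, and the part of the matches in the levels of the genes, was not tested.

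Ligation was compared with sham first. All 10 genes passed the filter on low counts and all 10 differed between ligation and sham (edgeR quasi-likelihood test, adjusted p under 0.05), 7 higher and 3 lower. Of the 13825 genes tested in this comparison, 38.2% were called, 20.1% higher and 18% lower. The higher genes were Ankrd1, Ankrd23, Xirp1, Xirp2, Fhl1, Nrap and Synpo2l, and the lower genes were Fhl2, Tcap and Csrp3. The median log2 difference over the 10 genes was 0.86, against 0.01 over all genes tested. The ranges of the ligation and sham libraries did not overlap for any of the 10, with 7 higher and 3 lower. Of all genes tested, 47.6% did not overlap, 25% higher and 22.6% lower.

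Cells and ligation were then compared. Here 6 of the 10 genes were called, where 9.87% of all genes were, 4.19% higher and 5.69% lower: Ankrd1, Xirp1, Csrp3, Fhl1 and Nrap were higher in the cells group and Tcap was lower. The libraries of these groups did not overlap for 8 of the 10, with 6 higher and 2 lower, and for 27.2% of all genes, with 13.2% higher and 14% lower. The median log2 difference over the 10 was 0.14, against 0.00 over all genes. The calls of Ankrd1, Xirp1 and Tcap held in every one of the 21 alternative fits, whereas those of Csrp3, Fhl1 and Nrap were lost in several. The count was 3 without ligation replicate 2, without any 1 of the cells replicates 1, 2 and 3, and when library totals alone or the cardiomyocyte markers set the scale. Csrp3 and Fhl1 also lost their calls without ligation replicate 3, and Nrap without ligation replicate 1. Each of these 3 calls was lost in 5 of the 9 fits that left out 1 library. With libraries of one header stem summed, 5 members were called in cells against ligation: Csrp3 (edgeR adjusted p = 0.063) and Fhl1 (edgeR adjusted p = 0.067) lost their calls and Xirp2 gained one (edgeR adjusted p = 0.0461). In ligation against sham that fit called 9 members, all but Ankrd23 (edgeR adjusted p = 0.113). Between cells and sham 8 of the 10 were called, 6 higher and 2 lower, where 40.9% of all genes were, 21% higher and 20% lower. Between cells and sham 6 genes lay higher and 2 lower without overlap, against 49.8% of all genes in either direction, 25.4% higher and 24.5% lower. The 3 comparisons share libraries and are not independent of each other.

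**Figure D1:**
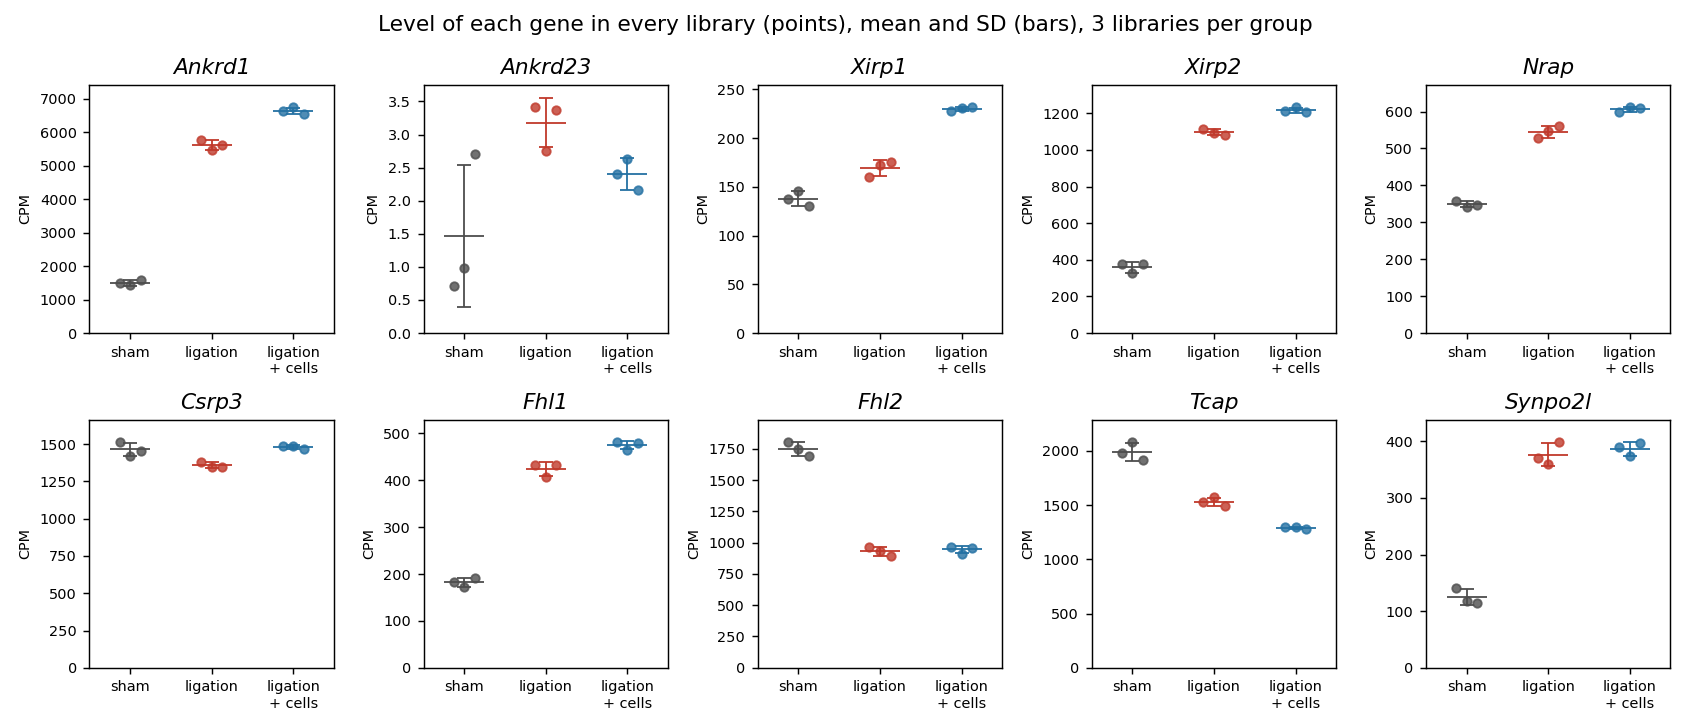
Level of each of the 10 genes in the 9 libraries, in TMM-scaled CPM on linear axes that start at 0 and differ between panels; points are libraries, and bars are group means and SD (n = 3). Ankrd1 lies at 1424 to 1588 CPM in sham, 5459 to 5766 CPM after ligation and 6554 to 6745 CPM in the cells group, while Fhl2, Tcap and Csrp3 are lower after ligation than in sham.

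Among the ankyrin repeat proteins, which bind titin at the I-band, Ankrd1 (also called CARP; ENSMUSG00000024803, chr19:36111961-36120099, minus strand) was the most abundant member after ligation. It measured 1489, 1424 and 1588 CPM in the sham libraries, 5766, 5459 and 5626 CPM after ligation, and 6638, 6745 and 6554 CPM in the cells group. The 3 groups did not overlap, and the cells group lay above ligation. The means were 1500.3 ± 82.7, 5617 ± 153 and 6646 ± 95.9 CPM (SD, n = 3). Ligation was higher than sham by 1.90 on the log2 scale (SE 0.0362, 3.74-fold, edgeR adjusted p = 5.01e-19), and cells were higher than ligation by 0.24 (SE 0.0349, 1.18-fold, edgeR adjusted p = 6.89e-05). Ranked by mean CPM among all gene identifiers, Ankrd1 stood at place 51 in sham, 12 after ligation and 11 in the cells group.

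Ankrd23 (also called DARP; ENSMUSG00000067653, chr1:36530188-36536883, minus strand) is a relative of Ankrd1 and was close to the detection floor. It had 4, 6 and 17 counts in sham, 16, 19 and 27 after ligation and 17, 19 and 15 in the cells group. These are 0.712, 0.988 and 2.70 CPM, then 3.41, 2.75 and 3.38 CPM, then 2.41, 2.64 and 2.16 CPM. The ligation libraries lay above all sham libraries, sham replicate 3 only just below them, and the cells libraries overlapped sham. The difference between ligation and sham was 1.07 on the log2 scale (SE 0.404, edgeR adjusted p = 0.0414), and that between cells and ligation was -0.39 (SE 0.362, edgeR adjusted p = 0.578, 95% interval -1.15 to 0.36). The first call was lost in 7 of the 9 fits that left out 1 library, where the log2 difference ran from 0.77 to 1.87 (the latter without sham replicate 3), and with DESeq2 (adjusted p = 0.0719); the cause was not tested. Of the 2697 exonic bases of Ankrd23, 2109 (78.2%) are shared with Gm42417, a gene model on the same strand with 0 counts in all 9 libraries. The summary lines of the files have the names that htseq-count writes, a counter that by default leaves reads in shared exons uncounted as ambiguous, and 8.09% to 8.72% of the reads were marked so. The part of this overlap in the low values was not tested, and they give no level for the gene as a whole.

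The actin-binding proteins of the intercalated disc and the growing myofibril came next. Xirp2 (myomaxin, with Xin repeats; ENSMUSG00000027022, chr2:67446002-67526614, plus strand) measured 377, 325 and 376 CPM in sham, 1114, 1096 and 1084 CPM after ligation, and 1210.3, 1232 and 1209 CPM in the cells group. Every ligated library, with or without cells, was above every sham library. The means were 359.6 ± 29.6, 1098 ± 14.8 and 1217 ± 13.04 CPM (SD, n = 3), so ligation was 3.05-fold sham (log2 difference 1.61, SE 0.0491, edgeR adjusted p = 7.68e-16). The cells libraries also lay above the ligation libraries without overlap, by 0.15 on the log2 scale (SE 0.0472, 95% interval 0.05 to 0.25), with an edgeR adjusted p of 0.0509, just outside the threshold. With DESeq2 that p was 0.0195, and over all alternatives it ran from 0.00847 to 0.361. With offsets for length and GC content the difference itself was 0.0625 (edgeR adjusted p = 0.335).

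Xirp1 (Xin; ENSMUSG00000079243, chr9:120013755-120023598, minus strand), the relative of Xirp2, measured 137, 146 and 131 CPM in sham, 159.8, 172 and 175 CPM after ligation, and 227, 230.5 and 231.5 CPM in the cells group. The groups formed 3 separate steps. The log2 difference was 0.29 between ligation and sham (SE 0.0573, edgeR adjusted p = 0.000345) and 0.44 between cells and ligation (SE 0.0557, 1.36-fold, edgeR adjusted p = 1.47e-05). The first was 0.67 when scaled to cardiomyocyte markers, so which step is larger rests on the scaling. The second was the largest of the called differences between cells and ligation among the 10 genes.

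Nrap (ENSMUSG00000049134, chr19:56320035-56390037, minus strand) encodes a nebulin-related LIM protein that takes part in the assembly of myofibrils and sits at the intercalated disc. It measured 357, 343 and 348 CPM in sham, 528, 547 and 560.3 CPM after ligation, and 599, 611 and 609.9 CPM in the cells group. Again the 3 groups did not overlap. Ligation was higher than sham by 0.64 on the log2 scale (SE 0.0428, edgeR adjusted p = 1.93e-10) and cells were higher than ligation by 0.15 (SE 0.0421, edgeR adjusted p = 0.022). The second call was lost in 5 of the 9 fits that left out 1 library. The first difference was 1.01 when scaled to cardiomyocyte markers. Of the exonic bases of Nrap, 6.83% overlap other gene models, and of those of Xirp2, 1.40%; whether the counting used strand is not given in the sources used here.

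Synpo2l (cytoskeletal heart-enriched actin-associated protein, a Z-disc partner of alpha-actinin; ENSMUSG00000039376, chr14:20658946-20668354, minus strand) measured 141, 118 and 115 CPM in sham, 371, 359.6 and 399 CPM after ligation, and 389.6, 374 and 397 CPM in the cells group. Ligation was 3.02-fold sham (log2 difference 1.59, SE 0.0659, edgeR adjusted p = 1.13e-13), with no overlap. The cells and ligation libraries overlapped, and their log2 difference was 0.04 (95% interval -0.09 to 0.17, edgeR adjusted p = 0.771).

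The 3 LIM-only proteins Csrp3, Fhl1 and Fhl2 did not move together. Fhl1 (ENSMUSG00000023092, chrX:56731787-56793346, plus strand), known as part of a titin-bound stretch sensor, measured 184, 172 and 191 CPM in sham, 433, 408 and 432 CPM after ligation, and 481, 465.5 and 479 CPM in the cells group. Ligation lay far above sham and the cells group a small step higher still. The log2 differences were 1.22 (SE 0.0499, 2.33-fold, edgeR adjusted p = 9.86e-14) and 0.16 (SE 0.0479, 1.12-fold, edgeR adjusted p = 0.033). The second call was lost in 5 of the 9 fits that left out 1 library.

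Fhl2 (ENSMUSG00000008136, chr1:43123074-43196984, minus strand), which binds titin and acts as a coregulator of transcription, went the other way. It measured 1802, 1747 and 1692 CPM in sham, 965, 931 and 897 CPM after ligation, and 968, 912 and 957 CPM in the cells group. Both ligated groups were lower than sham by a similar amount, and they overlapped each other. Ligation differed from sham by -0.91 on the log2 scale (SE 0.0404, 1.88-fold lower, edgeR adjusted p = 3.66e-13), and cells from ligation by 0.02 (95% interval -0.06 to 0.11, edgeR adjusted p = 0.793).

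Csrp3 (muscle LIM protein; ENSMUSG00000030470, chr7:48830398-48848033, minus strand), a Z-disc protein that binds Tcap and alpha-actinin, varied least with TMM factors, but more than Tcap when scaled to cardiomyocyte markers. It measured 1513, 1424 and 1458 CPM in sham, 1382, 1349 and 1345 CPM after ligation, and 1485, 1490.2 and 1465 CPM in the cells group. The ligation libraries were the lowest, and sham and cells overlapped. The log2 difference was -0.11 between ligation and sham (SE 0.0352, edgeR adjusted p = 0.0188), 0.12 between cells and ligation (SE 0.0352, edgeR adjusted p = 0.0284) and 0.01 between cells and sham (95% interval -0.06 to 0.09, edgeR adjusted p = 0.765). The last was called higher with library totals alone (0.17, edgeR adjusted p = 0.000221) and when scaled to cardiomyocyte markers (0.38, edgeR adjusted p = 1.39e-08). The direction between ligation and sham rests on the scaling: with library totals alone it was 0.08 (edgeR adjusted p = 0.0606), scaled to cardiomyocyte markers it was 0.26 (edgeR adjusted p = 2.82e-06), and the call was also lost without sham replicate 1 (edgeR adjusted p = 0.0957) or without ligation replicate 2 (edgeR adjusted p = 0.0726). Between cells and ligation the call was lost in 5 of the 9 fits that left out 1 library.

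Tcap (telethonin; ENSMUSG00000007877, chr11:98383811-98384953, plus strand) caps the N-terminal ends of titin in the Z-disc. It measured 1978, 2080.5 and 1917 CPM in sham, 1527, 1571 and 1496 CPM after ligation, and 1301, 1294 and 1284 CPM in the cells group. It was the single member that was lower in the cells group than after ligation alone by the test. The log2 difference was -0.38 between ligation and sham (SE 0.0368, edgeR adjusted p = 5.37e-08) and -0.24 between cells and ligation (SE 0.0368, edgeR adjusted p = 0.000123). The first difference was -0.16 with offsets for transcript length and GC content, and the call was lost when libraries were scaled to cardiomyocyte markers (-0.01, edgeR adjusted p = 0.86).

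**Figure D2:**
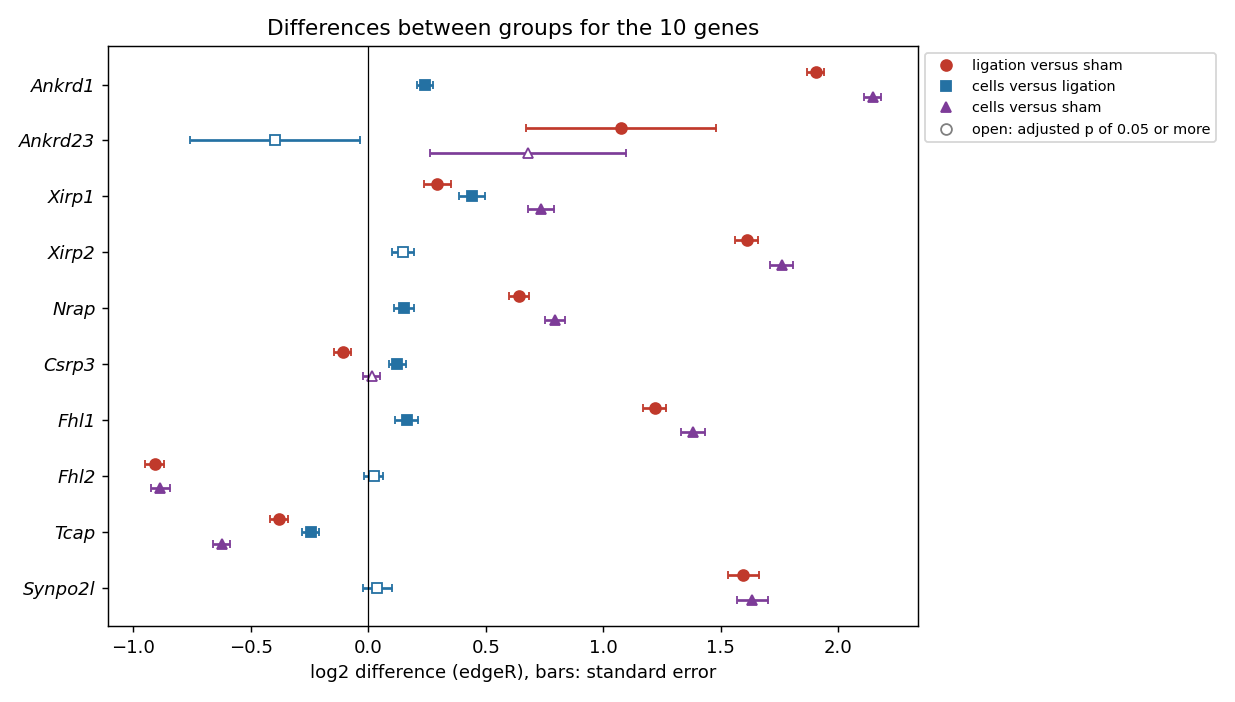
Log2 differences of the 10 genes for the 3 comparisons (circles, ligation against sham; squares, cells against ligation; triangles, cells against sham) from the edgeR fit over 9 libraries, with SE bars; filled symbols passed an adjusted p of 0.05. The differences between ligation and sham span -0.91 (Fhl2) to 1.90 (Ankrd1), whereas the called differences between cells and ligation stay between -0.24 (Tcap) and 0.44 (Xirp1).

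The cells group was also set against sham. Ankrd1 was 4.43-fold higher than in sham (log2 difference 2.15, SE 0.0365, edgeR adjusted p = 7.19e-20), Xirp2 3.39-fold, Synpo2l 3.10-fold, Fhl1 2.61-fold, Nrap 1.74-fold and Xirp1 1.66-fold. For Tcap and Fhl2, which were lower, the log2 differences were -0.62 (SE 0.0369, edgeR adjusted p = 2.80e-11) and -0.89 (SE 0.0404, edgeR adjusted p = 4.82e-13). Scaled to cardiomyocyte markers these were -0.26 for Tcap and -0.52 for Fhl2, and with offsets for length and GC content -0.33 for Tcap. The summed level of the 10 genes was 7782 to 7978 CPM in sham, 11895 to 12248 CPM after ligation and 13189 to 13357 CPM in the cells group, and Ankrd1 alone was 18.3% to 20.3%, 45.9% to 47.1% and 49.7% to 50.5% of that sum.

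Levels of different genes were compared per kilobase of exon, counting the exonic bases of all transcripts of a gene that no other gene model shares. In sham the order was led by Tcap at 2101 mean CPM per kb, followed by Fhl2 at 921, Csrp3 at 548 and Ankrd1 at 519.8. After ligation Ankrd1 led at 1946 CPM per kb, above Tcap at 1615, Csrp3 at 509 and Fhl2 at 491. In the cells group Ankrd1 stood at 2302.8 CPM per kb and Tcap at 1364. Nrap, Fhl1, Xirp2, Synpo2l and Xirp1 followed in sham, from 68.1 down to 23.6 CPM per kb. After ligation and in the cells group Fhl1 (114 and 128 CPM per kb) stood above Nrap (106 and 118). The lengths used for Fhl1 (3714 bases) and Ankrd1 (2886) exceed those of their longest transcripts (2770 and 2020). In sham the order of Fhl1 and Nrap, and that of Ankrd1 and Csrp3, therefore rests on the length used. Ankrd23 was lowest in each group, at 2.49 CPM per kb in sham on the bases it does not share. The libraries' ranges of neighbours in the order overlapped for Csrp3 with Ankrd1, Xirp2 with Synpo2l and Synpo2l with Xirp1 in sham, for Csrp3 with Fhl2 after ligation, and for no pair in the cells group.

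**Figure D3:**
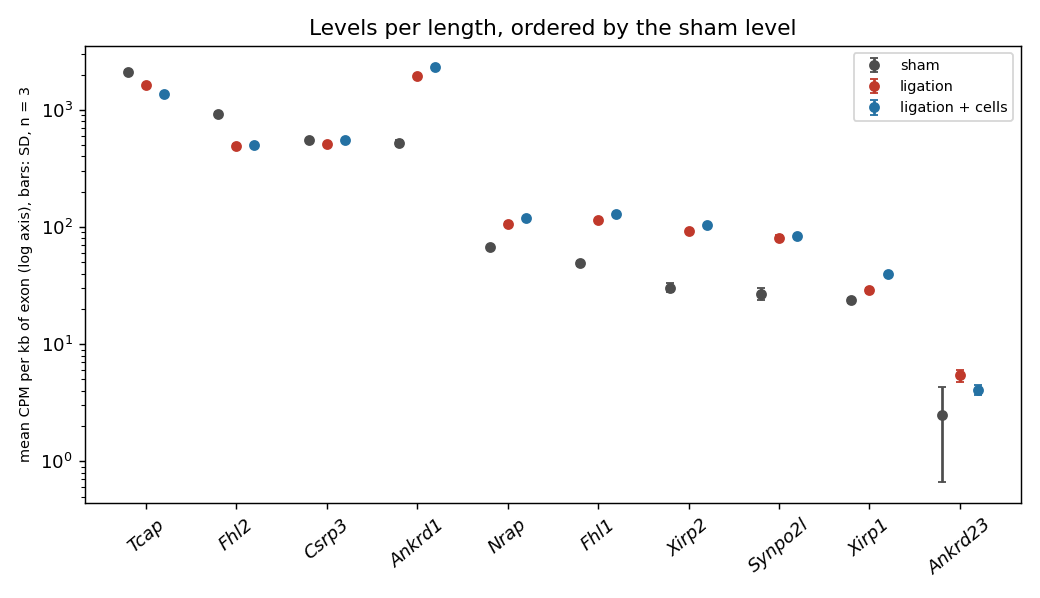
Mean level per kilobase of exon of the 10 genes in the 3 groups, in CPM per kb on a log axis, with SD bars (n = 3) and the genes ordered by their sham level. On the exon lengths used, Ankrd1 moves from the fourth place in sham (519.8) to the first after ligation (1946) and in the cells group (2302.8), and Tcap goes from 2101 to 1364. The sham place of Ankrd1 next to Csrp3 rests on the length used.

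Ratios of related members within a library do not depend on the scaling between libraries. The counts of Fhl1 were 0.102, 0.0986 and 0.113 of those of Fhl2 in sham, 0.448, 0.438 and 0.482 after ligation, and 0.497, 0.511 and 0.5004 in the cells group. The mean ratio thus went from 0.104 ± 0.00734 to 0.456 ± 0.0227 and 0.503 ± 0.00698 (SD, n = 3), with no overlap between any of the groups. The counts of Xirp1 were 0.364, 0.449 and 0.347 of those of Xirp2 in sham, 0.143, 0.157 and 0.161 after ligation, and 0.188, 0.187 and 0.191 in the cells group. In the cells group this ratio lay between those of ligation and sham. For each of these pairs and each comparison the two-sided exact permutation p was 0.1, the smallest that 3 libraries against 3 can give, and 0.1125 after Benjamini-Hochberg adjustment over 9 comparisons. The ratio of Ankrd1 to Ankrd23 overlapped between ligation and sham, with means of 1781 ± 177 and 1373 ± 754 (SD, n = 3; exact permutation p = 0.5). In the cells group it was 2782 ± 238 and above both other groups without overlap (exact permutation p = 0.1 for each), with 15 to 19 counts of Ankrd23 in these libraries.

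**Figure D4:**
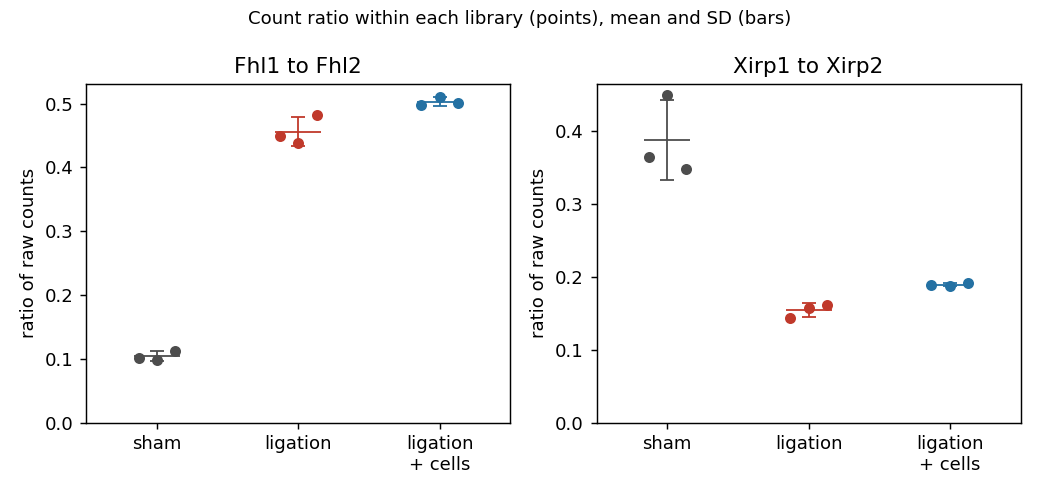
Ratio of the counts of related members within each library, on linear axes that start at 0, for Fhl1 to Fhl2 (left) and Xirp1 to Xirp2 (right) in the 3 groups; points are libraries, and bars are group means and SD (n = 3). The ratio of Fhl1 to Fhl2 is 0.0986 to 0.113 in sham and 0.438 to 0.482 after ligation, and that of Xirp1 to Xirp2 is 0.347 to 0.449 in sham and 0.143 to 0.161 after ligation.

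Markers of the cell types in the tissue moved with the groups. The summed level of 12 cardiomyocyte markers was 69276 to 70293 CPM in sham, 52087 to 55430 CPM after ligation and 53688 to 54884 CPM in the cells group, with none at 0. They did not move evenly: 8 of 12 were lower after ligation, Myl2, Myl3 and Tnni3 by log2 differences of -0.94, -0.91 and -0.95, and 2 were higher, Ryr2 by 0.36 and Mybpc3 by 0.11. Leukocyte markers summed to 382 to 417 CPM in sham, 800 to 827 CPM after ligation and 330 to 344 CPM in the cells group, and 7 of 7 were called higher after ligation and 7 of 7 lower in cells than in ligation. Fibroblast markers (5 of 7 higher after ligation, 1 lower) summed to 2031 to 2080, 3614 to 3695 and 3365 to 3468 CPM. Endothelial markers (6 of 6 lower after ligation) summed to 1868 to 1973, 1242 to 1310 and 1369 to 1409 CPM. Of 6 smooth muscle markers tested, Myh11, Smtn and Acta2 were lower after ligation, by log2 differences of -0.47, -0.40 and -0.43, and Des, which cardiomyocytes also express and which made up most of the list's sum, was higher. The part of these shifts in the members' differences was not tested.

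Counted per 1000 counts of the 12 cardiomyocyte markers, which takes the place of the library scale, the members gave another picture for 2 of the 3 that fell. Tcap had 27.7 to 29.6 counts per 1000 in sham and 27.5 to 29.0 after ligation, which overlap, and 23.6 to 24.0 in the cells group. Csrp3 had 20.3 to 21.8 in sham, 24.9 to 25.8 after ligation and 27.2 to 27.4 in the cells group, so on this scale it was higher after ligation. Fhl2 stayed lower, at 24.4 to 25.9 in sham against 17.2 to 17.4 after ligation. Ankrd1 went from a mean of 21.5 to 104 and 122, and Xirp2 from 5.16 to 20.4 and 22.4. In an edgeR fit scaled to the marker sum the log2 difference between ligation and sham was -0.01 for Tcap (adjusted p = 0.86), 0.26 for Csrp3 (adjusted p = 2.82e-06) and -0.54 for Fhl2, on a scale where the median gene moved by 0.38. Because the markers themselves moved unevenly, this scale is no count of cardiomyocytes.

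**Figure D5:**
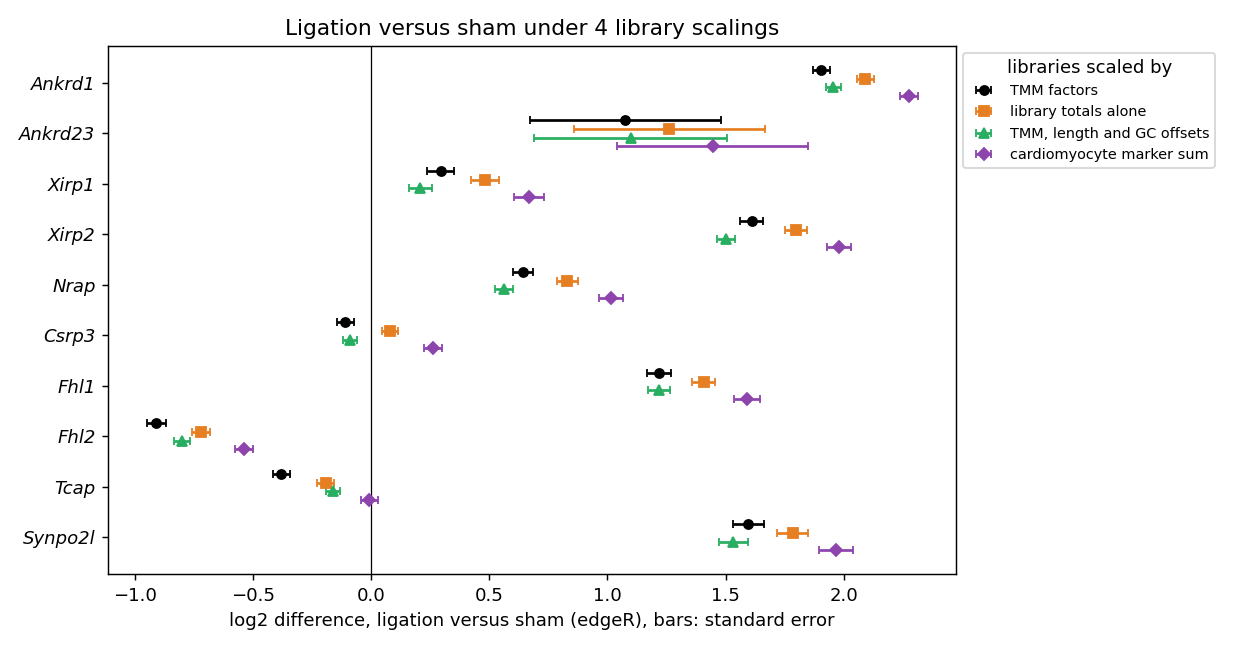
Log2 difference between ligation and sham of the 10 genes from edgeR, with SE bars, under 4 scalings: TMM factors, library totals alone, TMM with length and GC offsets, and the sum of the cardiomyocyte markers. Ankrd1, Xirp2, Synpo2l and Fhl1 stay far above 0 and Fhl2 stays below it under each of them, whereas Csrp3 lies on either side of 0 and Tcap reaches -0.01 when scaled to the cardiomyocyte markers.

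Markers of skeletal muscle, which shares several of these genes, differed in level. Ckm, which the heart also expresses, lay at 593 to 660.98 CPM over the 9 libraries. Mybpc2 lay at 18.3 ± 2.64 CPM in sham, 25.7 ± 0.606 CPM after ligation and 36.5 ± 1.93 CPM in the cells group (SD, n = 3), with log2 differences of 0.48 (ligation against sham, edgeR adjusted p = 0.00186) and 0.51 (cells against ligation, edgeR adjusted p = 0.00199). The other 11 markers summed to 4.98 to 8.07 CPM in sham, 12.0 to 16.6 CPM after ligation and 2.41 to 4.32 CPM in the cells group, no single one passed 4.05 CPM, and Tnnc2 was at 0 in every library; this split of the list was made after the values were seen. The part of skeletal muscle RNA in the members' differences was not tested. The 5 atrial markers summed to 474 to 565, 845 to 1611 and 1569 to 2179 CPM. Nppa carried the rise after ligation, from 107 ± 34.4 to 895 ± 369 CPM (SD, n = 3), and Bmp10 was also higher, whereas Myl4, Myl7 and Sln were lower than in sham, by log2 differences of -0.46, -0.68 and -0.25. In the cells group 3 were higher than after ligation: Myl4 by a log2 difference of 1.79, Myl7 by 1.60 and Sln by 1.80. Bmp10 was lower (-2.39, edgeR adjusted p = 0.000473), and Nppa differed by -0.17 (edgeR adjusted p = 0.751). The part of atrial tissue in the differences between cells and ligation was not tested.

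Transcript length also ran with the difference between ligation and sham. Over the 13818 tested genes with a known length, the median log2 difference was -0.17 in the shortest of 5 equal classes of genes and 0.10 in the longest. Tcap (948 bases), Fhl2 (1563) and Ankrd1 (2020) have the shortest longest transcripts of the 10 genes, and Xirp2 (11979) has the longest. With offsets for length and GC content in the edgeR fit, Tcap differed by -0.16 (adjusted p = 0.000116), Fhl2 by -0.80 and Ankrd1 by 1.96 between ligation and sham. The counts of called members were the same as without offsets in all 3 comparisons.

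Other genes of the Z-disc were read from a list of 28, none a member, of which 27 were tested. After ligation 12 were higher and 8 lower than in sham (median log2 difference 0.04), where 20.1% of all genes tested were higher and 18% lower. Over the alternative fits 17 to 26 were called. Several of the lower genes differed by less than the 0.38 by which the cardiomyocyte marker scale moved the median gene, so this split rests on the scaling. In cells against ligation 8 were higher and 2 lower (median 0.07), where 4.19% of all genes were higher and 5.69% lower. By the fixed rule the list's largest called differences are named. Rcan1, an inhibitor of calcineurin, went from 102 ± 3.20 to 229.7 ± 1.53 CPM (SD, n = 3; log2 difference 1.17, edgeR adjusted p = 4.30e-13) and on to 284 ± 9.49 CPM in the cells group. Des, which encodes the intermediate filament desmin, went from 1852 to 3386 CPM (log2 difference 0.87), and Csrp2, a relative of Csrp3, from 48.3 to 73.8 CPM (0.61). Ankrd2, the third titin-binding ankyrin repeat relative, was lower, at 3.15 ± 0.568 CPM in sham and 0.889 ± 0.464 CPM after ligation (log2 difference -1.91, edgeR adjusted p = 0.00144), so it was low throughout and opposite in direction to Ankrd1. Myot, the alpha-actinin partner myotilin, was higher in the cells group, at 79.0 against 51.8 CPM after ligation (log2 difference 0.62, edgeR adjusted p = 4.80e-06).

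Of 18 genes of the intercalated disc and costamere, 17 were tested, with 9 higher and 3 lower after ligation (median log2 difference 0.19, against 0.01 over all genes), set beside 20.1% and 18% of all genes. Over the alternative fits 10 to 16 were called. Of the lower genes, all but Lims2 differed by less than the 0.38 by which the cardiomyocyte marker scale moved the median gene, so this split rests on the scaling. In cells against ligation 4 were higher and none lower, set beside 4.19% and 5.69% of all genes. The latter count fell to 1 without cells replicate 3 and to 2 without ligation replicate 2, without cells replicate 1 or with library totals alone. Dsp, the desmosomal linker desmoplakin, went from 568 to 1001 CPM (log2 difference 0.82), Pkp2, plakophilin of the desmosome, from 119 to 174 CPM (0.55), and Lims2, an adaptor of integrin-linked kinase, from 157 to 101 CPM (-0.64). Over the 21 alternative fits these calls were kept. The differences ran from 0.71 to 1.19 for Dsp, 0.52 to 0.92 for Pkp2 and -0.67 to -0.27 for Lims2. Pkp2 was higher again in the cells group, at 203 CPM (log2 difference 0.22, edgeR adjusted p = 0.00717). Vcl, which encodes vinculin, went from 36.0 to 52.8 CPM (log2 difference 0.56, edgeR adjusted p = 0.000231, with differences of 0.44 to 0.94 over the alternative fits). It was at 67.5 CPM in the cells group (log2 difference 0.34, edgeR adjusted p = 0.0278), a call lost without ligation replicate 1 or 2, without cells replicate 2 or 3, and with library totals alone.

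A further list of 20 genes held YAP and SRF, the load-responsive regulators of transcription, with related regulators and known targets or cofactors. Of these, 19 were tested and 9 were higher and none lower after ligation (median log2 difference 0.22), against 20.1% higher and 18% lower of all genes tested. The 9 include the regulators Yap1 (log2 difference 0.46), Wwtr1 (0.22) and Srf (0.33). When libraries were scaled to cardiomyocyte markers 17 were called, all higher, on a scale that moved the median gene to 0.38. Ccn2, the matricellular protein CTGF, went from 82.8 ± 4.16 to 437 ± 19.8 CPM (SD, n = 3; log2 difference 2.40, edgeR adjusted p = 8.00e-18), a larger difference than that of any of the 10 members. Ccn1, its relative, went from 56.5 to 99.1 CPM (0.81), and Mrtfa, a cofactor of SRF, from 11.8 to 19.2 CPM (0.73). Vcl stands in this list too. In cells against ligation 5 were higher and 2 lower (4.19% and 5.69% of all genes), and without cells replicate 2 the called genes numbered 4 in place of 7. Acta1, skeletal alpha-actin and a fetal-type gene in the ventricle, was at 1838 ± 20.7 CPM in the cells group against 1258 ± 48.9 CPM after ligation (SD, n = 3; log2 difference 0.55, edgeR adjusted p = 4.10e-09). Mrtfa was lower, at 13.2 against 19.2 CPM (log2 difference -0.57, edgeR adjusted p = 0.0139), a call lost without ligation replicate 3 or without cells replicate 2.

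For the 3 members with the widest range of group means, the genes with the nearest pattern were looked up among 9404 genes with a mean of at least 10 CPM, by the root mean square difference of their centred log2 values over the 9 libraries. The nearest to Ankrd1 were Mfap4, a microfibril-associated protein (0.116; 29.4, 115 and 115 mean CPM in sham, ligation and cells), and Itgbl1 (0.121; 24.8, 94.6 and 110.1 mean CPM). Each stayed among the nearest 2 in 7 of 9 repeats that left out a library. Mfap4 had like means in ligation and cells, where Ankrd1 was higher in cells. The nearest to Xirp2 was Fn1, fibronectin (0.0772; 88.1, 275 and 298 mean CPM), which stayed among the nearest 2 in 9 of 9 repeats that left out a library. Its second neighbour was Gm13443, which stayed in 3 of 9. Fn1 was also the nearest to Synpo2l (0.111), and stayed among its nearest 2 in 5 of 9 such repeats. These are likenesses over the same 9 libraries, and Fn1 is known to be expressed mainly outside cardiomyocytes.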

How the data were processed

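RNA was sequenced from 9 heart libraries, 3 per group. The labels' protocols name TRIzol for the extraction of total RNA and a NEBNext Ultra kit for the libraries. Each deposited table gives unnormalized read counts by gene for a single library. The genome build was mm10, per the submitters' processing notes. Aligner, counter, strand setting and annotation release are not given in the sources used here. The 5 summary lines closing each file were left out of library sizes; reads with no feature were 4.14% to 4.91% and ambiguous reads 8.09% to 8.72%. Symbols, gene models and lengths came from GENCODE annotation of GRCm38 (53274 of 53465 identifiers had a symbol), and promoter windows from RefSeq GRCm38.p6.

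Counts were analysed in R 4.3.3 with edgeR 4.0.16. Genes were kept by filterByExpr, TMM factors scaled the libraries, and 1 quasi-likelihood model with a mean per group was fitted over all 9 libraries (6 residual degrees of freedom). Tests were two-sided, with Benjamini-Hochberg adjustment over 13825 genes and a threshold of 0.05. On simulated counts of 13663 genes, for ligation against sham, 152 of 200 genes changed by 1 log2 unit were called with the right sign. Beside these 152 right calls, 16 unchanged genes were called. Smaller changes, like those called between cells and ligation, were not simulated. On average over genes, replicates of each group differed by more than sampling noise. In the cells group this did not hold for Xirp1, Xirp2, Csrp3, Tcap, Nrap and Ankrd23. The SD of Xirp1 there was 0.938% of its mean, where counting noise alone gives 2.48%. For Ankrd1, Fhl1, Fhl2 and Synpo2l the SD in that group was above counting noise (Fhl2, 3.15% against 1.22%).

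Alternatives were library totals, DESeq2 1.42.0 (size factors, Wald test), other filters, only the compared groups, no mitochondrial genes, a cardiomyocyte marker scale, a replicate block and leaving out each library. Summing libraries with one header stem, and offsets for length and GC content with or without the block, were chosen after seeing the data. Members, lists and the naming rule were chosen with earlier results of these data known. All 10 members are named. From each further list the rule names the 4 called genes with the largest difference between ligation and sham and the 2 for cells against ligation, at a mean of at least 1 CPM. Nearest patterns used log2(CPM + 0.5); 1 gene that this rule names is not reported here.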

Additional observations from a re-analysis of the deposited data

How the results depend on the processing

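Between ligation and sham, the direction and the call of Ankrd1, Xirp1, Xirp2, Fhl1, Fhl2, Nrap and Synpo2l were kept in each of the 21 alternative fits. Leaving out 1 library gave 8 to 10 called members and 4482 to 5459 called genes for ligation against sham, 3 to 7 and 951 to 1398 for cells against ligation, and 8 to 9 and 5055 to 5746 for cells against sham. Ankrd23 was also called between cells and sham on the marker scale (1.04, edgeR adjusted p = 0.0373) and without sham replicate 3 (1.47, edgeR adjusted p = 0.0175), and ran from 0.37 to 1.47 without 1 library. Called members in cells against ligation numbered 3 with library totals alone and 3 when scaled to the cardiomyocyte markers, against 6. Genes called between ligation and sham numbered 8190 on the marker scale, against 5277. Library totals moved the median gene to 0.20 between ligation and sham, and the share of called genes that were higher from 52.7% to 78.7%, and to 91.1% on the marker scale. For cells against sham it went from 51.2% to 73.1% and 88.9%, and for cells against ligation from 42.4% to 32.0% and 36.9%. Csrp3 turned to 0.0785 (library totals) and 0.26 (marker scale) between ligation and sham. Between cells and sham its log2 difference was -0.00196 without mitochondrial genes, -0.000185 with libraries of one header stem summed, -0.00703 to 0.0376 without 1 library, 0.174 with library totals and 0.375 on the marker scale, the last 2 past the threshold. Fhl2 in cells against ligation turned to -0.00533 with library totals and ran from -0.00271 to 0.0481 without 1 library. Same-numbered libraries did not deviate together (correlations of -0.121 to 0.133 over 9414 genes). With the replicate number as a block, 9, 6 and 8 members and 5134, 1230 and 5511 genes were called in these comparisons, in the same order; Ankrd23 lost its call (edgeR adjusted p = 0.0503). Ankrd23 had 4 to 27 counts per library.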
